A study of Mus musculus with 53 samples.

Results

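Loss of Apc in the mouse small intestine was compared at 2 stages, shortly after the gene was deleted and in tumours that had grown from the tissue, in 24 of the 53 RNA-seq libraries of the study. The libraries were chosen by their labels alone. The early arm held 10 libraries from VilCreER+ APCfl/fl mice (Apcfl/fl day 4 below) and 6 from VilCreER+ mice with intact Apc (WT day 4). Both were small intestinal tissue taken on day 4 after tamoxifen. The tumour arm held 5 libraries from adenomas of the small intestine of VilCreER+ Apcfl/+ mice, labelled as primary tumours (tumours below), and 3 from the small intestine of VilCreER+ mice with no day in their label (WT SI). Every mouse, controls included, carried the tamoxifen-activated Cre recombinase driven by the Villin promoter, which acts in the intestinal epithelium, was given tamoxifen and received no drug. In Apcfl/fl mice Cre can delete both copies of Apc, whereas in Apcfl/+ mice it deletes 1 copy and the state of the second copy was not measured. Labels gave a mixed C57BL/6J N6 background for the early arm and an inbred C57BL6/J background for the tumour arm, and gave no age and no sex. RNA came from whole pieces of tissue, so that stroma, immune cells and epithelium were read together, and fewer cells of a type and less RNA per cell cannot be told apart.

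APC is part of the complex that marks β-catenin for destruction. Without it β-catenin enters the nucleus, binds TCF and LEF proteins and drives the Wnt targets that keep crypt cells dividing and undifferentiated. Several of these targets, among them Axin2, Notum and Znrf3, dampen Wnt signalling in turn. The data were asked which of the changes seen in tumours are already there on day 4 and which are found only in grown tumours. For each gene the day 4 effect is the log2 fold change of Apcfl/fl day 4 over WT day 4, the tumour effect is that of tumours over WT SI, and the difference is the tumour effect minus the day 4 effect. Levels are CPM, reads on a gene scaled to the same total of 1000000 in every library, with scaling factors of edgeR. Effects are given as log2 fold change ± SE from 1 fit over the 24 libraries, with p-values adjusted over all genes tested. The error of a gene is pooled over the 4 groups. Leaving out a library of 1 arm can therefore change a call in the other arm while the fold there hardly moves.

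Between 516985 and 32824795 reads per library were counted on genes, and at the median total of each group 3 reads stood for 0.138 to 0.175 CPM, a limit of counting alone. The first principal component (47.8% of the variance) separated the arms, and the second (16.5%) separated Apcfl/fl day 4 and tumour libraries from their controls. The controls of the arms themselves differed in 11496 of 22202 genes (51.8%), and the strain background, which the labels give as different, cannot be told apart from anything else in which the arms differed. Each effect was therefore taken within its own arm. Sex is not in the labels, and reads of the Y-linked Ddx3y were above 10 CPM in 4 of 6 WT day 4, 4 of 10 Apcfl/fl day 4, 3 of 3 WT SI and 1 of 5 tumour libraries. Reads of Gm13394, a gene model that also splits the libraries, were above 10 CPM in 3 of 6, 6 of 10, 3 of 3 and 0 of 5. In the tumour arm both markers therefore largely follow the groups, and cannot be told apart from them. Apcfl/fl 5 held both Ddx3y (7.53 CPM) and much X-linked Xist (575 CPM). In the other libraries rich in Xist, Ddx3y reached no more than 0.312 CPM (Apcfl/fl 2). The source of the Ddx3y reads in Apcfl/fl 5 was not tested. The 4 libraries that stood apart were Apcfl/fl 1, the shallowest, Apcfl/fl 5, Apcfl/fl 8 and tumour 2. For each gene list the called differences were counted again with a term for Ddx3y, with a term for Gm13394, without the 5 libraries with more than 1 CPM of the pancreatic gene Cpa1 (the Cpa1 libraries) and without these 4. Such counts are given beside a list where they moved by over 1.5 times and either count was 4 or more. Fits with libraries left out also rest on fewer libraries, which alone can change a count.

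**Figure D1:**
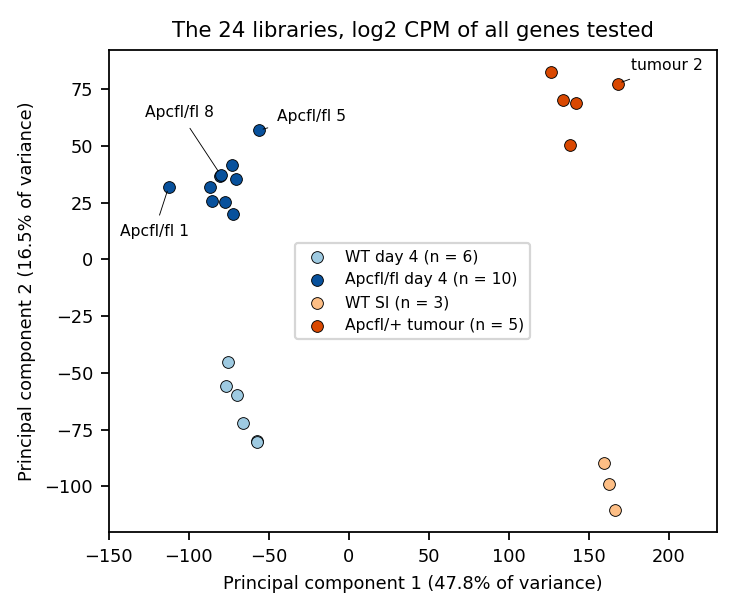
Each point is 1 of the 24 libraries, placed by its first and second principal components of log2 CPM. The 2 arms lie at opposite ends of the first component (47.8% of the variance), and in each arm the Apcfl/fl day 4 or tumour libraries lie above their controls on the second (16.5%).

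Apc RNA itself marked neither model. The gene (ENSMUSG00000005871, chromosome 18, bases 34220924 to 34322552, GRCm38) was measured between 63.4 and 113 CPM (median 101) in WT day 4 and between 41 and 149 CPM (median 132) in Apcfl/fl day 4. In WT SI it was at 190, 186 and 204 CPM, and in the tumours at 158, 158, 144, 142 and 167 CPM. Every tumour was below every WT SI library, while the day 4 groups overlapped, and neither the day 4 effect (0.40 ± 0.18, adjusted p = 0.0746) nor the tumour effect (-0.33 ± 0.25, adjusted p = 0.283) passed the test. Groups without overlap were common in the tumour arm, which held fewer libraries. They were found for 12484 of 22202 genes there and for 3051 at day 4. Apcfl/fl 8 had the lowest Apc of all, and the day 4 effect passed without Apcfl/fl 8 (0.51, adjusted p = 0.000464), as did the difference without Apcfl/fl 8 (-0.84, adjusted p = 0.00151). A count summed over the exons of a gene does not show a deletion that leaves the transcript, so the labels were not checked by it. Axin2, a Wnt target, was higher in each of the 15 Apcfl/fl day 4 and tumour libraries than in each of the 9 controls.

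At day 4, 5775 of 22202 genes rose (26%) and 4973 fell (22.4%), and in tumours 5295 rose (23.8%) and 5671 fell (25.5%). The 2 effects differed in 5486 genes, with 2759 higher (12.4%) and 2727 lower (12.3%) in tumours relative to day 4. Counts of called genes in every list below are to be read against these shares. Of 5721 genes called in both arms, 5099 (89.1%) moved in the same direction, which were 47.4% of the day 4 calls and 46.5% of the tumour calls. Sorted by their 3 tests, 4454 genes moved alike in both arms (2394 up and 2060 down), 567 moved further in tumours and 78 further at day 4. Alike here means that both effects were called in the same direction and their difference was not, which does not show that they were equal. A further 2585 changed in tumours only (1257 up, 1328 down) and 1504 at day 4 only (796 up, 708 down), in each case with the difference itself called, and 622 moved in opposite directions. For 6183 genes only 1 effect was called and the difference did not pass in the direction the classes require, so that an early and a late change could not be told apart. In 6209 genes neither effect was called. Some genes outside the classes still had a called difference. The number moving further at day 4 is the least stable of these and depended on single libraries, as the limits at the end give.

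**Figure D2:**
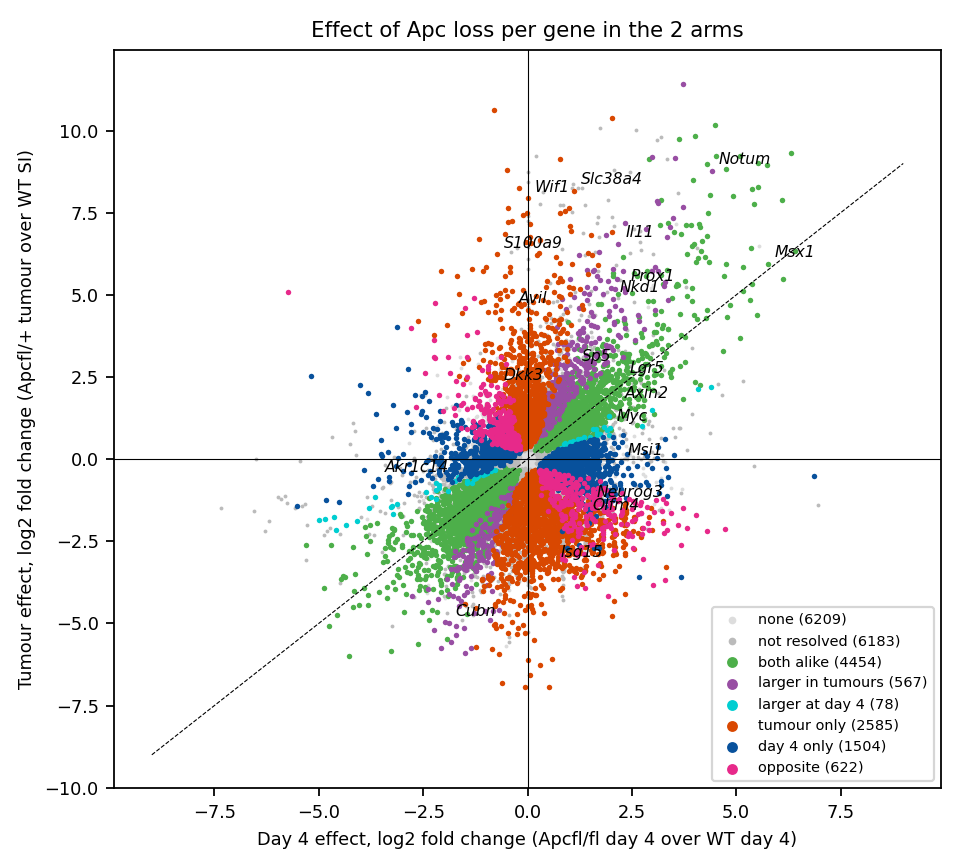
Each point is 1 of 22202 genes, with its log2 fold change at day 4 on the x axis and in tumours on the y axis, coloured by class. Genes on the dashed diagonal moved equally. Axin2, Lgr5 and Msx1 lie near it, Notum and Prox1 above it, and Wif1 and S100a9 near the vertical axis.

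**Figure D3:**
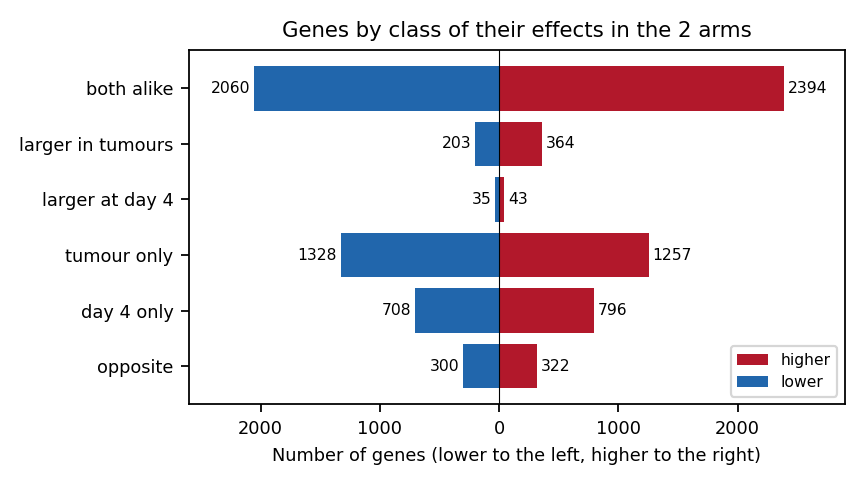
Bars give the number of genes in each class, with genes that rose to the right and genes that fell to the left. The longest bars are those of genes that moved alike in both arms, 2394 up and 2060 down, and the shortest those of genes that moved further at day 4, 43 up and 35 down.

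A core of Wnt targets was raised at both stages with no called difference. Of 22 genes for nuclear effectors and classical targets of β-catenin, 16 rose and 2 fell at day 4 (median log2 fold change 1.71, against 0.055 over all genes), and 16 rose and 2 fell in tumours (1.38, against 0.028). Among the Wnt effectors and targets the differences called as higher in tumours numbered 3 with a term for Gm13394 and 2 without the Cpa1 libraries, against 5 over all libraries. Among the Wnt effectors and targets the differences called as lower in tumours numbered 4 without the Cpa1 libraries and 7 without the 4 libraries that stood apart, against 2 over all libraries. Axin2 (ENSMUSG00000000142, chromosome 11, bases 108920349 to 108950783), which rebuilds the destruction complex and is the usual readout of the pathway, was between 51.8 and 76.1 CPM (median 67.2) in WT day 4 and between 161 and 377 CPM (median 308) in Apcfl/fl day 4. It was at 43.6, 71.9 and 57.6 CPM in WT SI and 153, 301, 141, 137 and 173 CPM in the tumours. No Apcfl/fl day 4 or tumour library overlapped its controls, and the effects were 2.18 ± 0.20 at day 4 and 1.65 ± 0.27 in tumours. Their difference (-0.53 ± 0.31, adjusted p = 0.225) passed, among the fits that left out 1 library, without tumour 2 (-0.79, adjusted p = 0.0345), the tumour with the most Axin2.

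Lgr5, the R-spondin receptor of crypt base stem cells, was between 9.4 and 15.2 CPM (median 12.4) in WT day 4 and between 20.4 and 107 CPM (median 59.2) in Apcfl/fl day 4. Its levels were 10.5, 10.5 and 11.8 CPM in WT SI and 61.5, 28.5, 61.9, 82.7 and 56.4 CPM in tumours, with effects of 2.28 ± 0.27 and 2.41 ± 0.39. The ubiquitin ligases Rnf43 and Znrf3, which remove Frizzled receptors, rose by 1.84 and 1.71 at day 4 and by 1.82 and 2.07 in tumours. The transcription factors rose alike too, Tcf7 by 2.04 and 1.63, Lef1 by 2.73 and 2.59, Sox9 by 2.54 and 2.10, and Sox4 by 2.28 and 3.00. So did the surface proteins Cd44 (2.43 and 1.70), Ephb2 (1.43 and 1.00) and Ephb3 (2.43 and 2.99). The same held for the cell cycle gene Ccnd1 (1.39 and 1.21), the stem cell regulator Ascl2 (2.45 and 1.54) and the stem cell gene Smoc2 (1.17 and 1.09). Sfrp2, a secreted Wnt-binding protein, rose by 2.81 and 3.24. For Ascl2 and Cd44 the difference lay close to the threshold (-0.91, adjusted p = 0.0701, and -0.73, adjusted p = 0.106), and it passed for Ascl2 in 5 of 24 fits that left out 1 library (highest adjusted p = 0.0488, without Apcfl/fl 1) and for Cd44 without Apcfl/fl 8 (-0.80, adjusted p = 0.0367). Ephb2 lost its tumour call without WT SI 1 (0.78, adjusted p = 0.0887). Ccnd1 lost its tumour call without WT SI 1 (0.99, adjusted p = 0.0758).

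Msx1, a homeobox factor, had the largest effect at day 4 among the Wnt effectors and targets, at between 0.374 and 0.691 CPM (median 0.569) in WT day 4 and between 17.9 and 44.3 CPM (median 26.6) in Apcfl/fl day 4. It was at 0.148, 0.271 and 0.157 CPM in WT SI and 11.6, 2.8, 13.5, 12.2 and 20.7 CPM in tumours, and the effects (5.76 ± 0.37 and 5.95 ± 0.57) did not differ beyond their error (0.19 ± 0.59, adjusted p = 0.86). Its WT SI levels lay near the limit of 3 reads there (0.15 to 0.163 CPM), so that the size of its tumour effect is uncertain. Tnfrsf19, a receptor of crypt cells, followed with 3.32 and 3.22. Genes were ranked by effect among protein-coding genes whose mean log2 CPM reached 3 and whose groups did not overlap. By that ranking, used for all classes, the genes that moved alike with the largest rise in tumours began with Aqp5 (5.52 at day 4 and 8.27 in tumours), a water channel, and Gulo (6.41 and 6.34), the last enzyme of vitamin C synthesis. Next came Msx1, Faim2 (3.47 and 4.89) and Ggh (2.72 and 3.83), a hydrolase of folate polyglutamates. Those with the largest fall were Enpp7 (-3.27 and -5.84), the sphingomyelinase of the brush border, and Slc5a4a (-4.75 and -5.09), followed by Dnase1 (-3.83 and -4.13), the lactase gene Lct (-2.08 and -4.06) and Slc5a4b (-4.15 and -4.01). Faim2 gained a called difference without tumour 2 (1.70, adjusted p = 0.0182). Ggh gained a called difference without Apcfl/fl 5 (1.25, adjusted p = 0.0302) or Apcfl/fl 6 (1.25, adjusted p = 0.0352). Enpp7 gained a called difference without tumour 3 (-3.42, adjusted p = 0.033).

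Promoter windows of all genes tested, 250 bases before to 50 after the start, were searched for CTTTGAT and CTTTGAA, letters bound by TCF and LEF proteins, on both strands in RefSeq sequence (GRCm38.p6). Of 13087 genes tested that had a window, 1043 (7.97%) held one. The share was 7.89% in genes that rose alike in both arms, 7.72% in genes that rose further in tumours and 7.85% in genes that rose in tumours only, against 7.97% over all genes. Among the 17 Wnt effectors and targets with a window 2 held one, Sp5 and Tnfrsf19, and none of the 9 Wnt feedback genes that were tested and had a window did. Dkk1, which had too few reads to be tested, held CTTTGAA at position -117 from its start. Sp5 and Tnfrsf19 are shown because they stand for the 2 patterns, Tnfrsf19 moving alike in both arms and Sp5 moving further in tumours, with the letters in capitals. The Sp5 window is chr2:70474673-70474972 on the plus strand, with the match 104 bases before the start. The Tnfrsf19 window is chr14:61037938-61038237 on the minus strand, 1 of 2 listed for the gene, with the match 202 bases before the start and read from the other strand.
Sp5: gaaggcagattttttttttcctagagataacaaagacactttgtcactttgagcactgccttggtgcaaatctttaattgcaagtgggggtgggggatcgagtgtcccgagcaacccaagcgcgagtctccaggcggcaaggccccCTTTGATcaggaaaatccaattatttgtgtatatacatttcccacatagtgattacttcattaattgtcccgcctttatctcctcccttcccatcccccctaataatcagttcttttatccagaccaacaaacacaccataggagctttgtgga
Tnfrsf19: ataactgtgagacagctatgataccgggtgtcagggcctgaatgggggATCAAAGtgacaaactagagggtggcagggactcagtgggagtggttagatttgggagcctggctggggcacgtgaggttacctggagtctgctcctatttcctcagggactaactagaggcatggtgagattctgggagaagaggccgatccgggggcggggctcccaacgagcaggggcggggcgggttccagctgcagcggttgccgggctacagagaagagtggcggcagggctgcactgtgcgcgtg

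A second set of targets was raised at day 4 and rose further in tumours. Sp5 (ENSMUSG00000075304, chromosome 2, bases 70474923 to 70477729), a transcription factor switched on by Wnt, was between 17 and 35.5 CPM (median 26.1) in WT day 4 and between 40.5 and 92.8 CPM (median 57.4) in Apcfl/fl day 4. It was at 12, 7.86 and 8.97 CPM in WT SI and 70, 43.8, 57.4, 72.6 and 87.3 CPM in tumours, and its effects were 1.15 ± 0.18 and 2.78 ± 0.28, with a difference of 1.63 ± 0.32 (adjusted p = 0.000793). Notum (ENSMUSG00000042988, chromosome 11, bases 120653788 to 120661175), a secreted enzyme that takes the lipid off Wnt ligands and so disarms them, had a larger difference. It was between 0.107 and 0.702 CPM (median 0.407) in WT day 4 and between 6.21 and 12.2 CPM (median 8.67) in Apcfl/fl day 4. In the tumour arm it was at 0.593, 0.38 and 0.367 CPM in WT SI and 213, 140, 180, 218 and 244 CPM in tumours. The 10 Apcfl/fl day 4 libraries all lay above the controls and all lay far below the 5 tumours. The effects were 4.41 ± 0.26 and 8.77 ± 0.40, and the difference 4.36 ± 0.45 (adjusted p = 1.5e-06). Genes on the other strand overlap 38.1% of the exon bases of Notum, and without a stated strand setting their reads cannot be told apart from its own. The same limit holds for other genes named here and below. Among them are Tagln (67.9%), Fosl1 (57.2%), Sox4 (54.6%), Pdzk1 (41.7%), Hes5 (31.8%) and Cdkn1c (30.7%). Nkd1, a cytoplasmic Wnt antagonist, rose from between 8.53 and 18 CPM (median 13.3) in WT day 4 to between 28.4 and 88.8 CPM (median 51.2) in Apcfl/fl day 4. It was at 7.41, 7.32 and 6.71 CPM in WT SI against 198, 222, 180, 218 and 231 CPM in tumours (difference 2.82 ± 0.40, adjusted p = 3.85e-05).

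Prox1, a homeobox factor of Wnt-driven tumours, was between 2.61 and 3.07 CPM (median 2.81) in WT day 4 and between 5.87 and 20.9 CPM (median 13.8) in Apcfl/fl day 4. It was at 3.11, 2.98 and 4.41 CPM in WT SI and 136, 144, 105, 110 and 155 CPM in tumours, and its tumour effect (5.21 ± 0.35) exceeded its day 4 effect (2.32 ± 0.22) by 2.90 ± 0.37 (adjusted p = 1.31e-05). Prox1 is also 1 of 8 genes that the study chose on these day 4 libraries as a signature of Wnt activation. Their rise at day 4 (8 of 8) is therefore no independent evidence, and in tumours 7 of the 8 rose. Krt23, a keratin, rose by 3.36 at day 4 and 4.85 in tumours (difference 1.49 ± 0.25, adjusted p = 0.000223). Rassf10 rose by 2.10 and 4.68 (difference 2.57 ± 0.47, adjusted p = 0.000459). Macc1 (3.65 and 2.82), Fgfr4 (2.32 and 2.14), Ascl2 and Axin2 moved alike, and the kinase gene Rps6ka6 passed at day 4 only.

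Of the 364 genes that rose further in tumours, Notum led by tumour effect. It was followed by Gkn3 (3.12 at day 4 and 7.78 in tumours), Asb4 (2.84 and 7.00), Prr18 (3.05 and 5.84) and Cfi (2.29 and 5.71), the complement factor I gene. Tumour 2 stood apart for Gkn3, at 14.1 CPM against 326 to 872 CPM in the other 4 tumours, and for Asb4, at 0.579 CPM against 26.6 to 77.3 CPM. Among the 203 that fell further in tumours, the largest falls were those of the brush border peptidase Anpep (-1.96 and -4.94), the transporter Slc2a7 (-2.16 and -4.27) and the scaffold gene Pdzk1 (-1.78 and -4.18). Next came the peptidase Dpp4 (-1.24 and -3.42) and the peptide transporter Slc15a1 (-1.68 and -3.36). Several of these serve in enterocytes, the absorptive cells. Of 30 enterocyte marker genes 24 fell at day 4 (median -1.70) and 25 in tumours (median -2.68), none rising in either arm. The difference was called as a further fall for 7 of them and as a smaller fall for 0. Among the enterocyte markers the differences called as lower in tumours numbered 3 without the Cpa1 libraries and 11 without the 4 libraries that stood apart, against 7 over all libraries. Cubn, the intrinsic factor receptor of the distal intestine, had the lowest difference (-3.10 ± 1.04), which was not called in 7 of 24 fits that left out 1 library (highest adjusted p = 0.115, without WT SI 1). Alkaline phosphatase Alpi had the highest (2.53 ± 1.03, adjusted p = 0.0759) and passed in neither arm (-1.21 and 1.32). Summed over the 30 genes, enterocyte markers ran from 44000 to 80000 CPM in WT day 4, 13900 to 31000 in Apcfl/fl day 4, 50500 to 73600 in WT SI and 1110 to 22700 in tumours. Cubn lost its day 4 call without WT day 4 library 4 (-1.47, adjusted p = 0.0527). Alpi gained a day 4 call without Apcfl/fl 1 (-1.42, adjusted p = 0.042) or WT day 4 library 5 (-1.40, adjusted p = 0.0472) or tumour 2 (-1.21, adjusted p = 0.00691), a tumour call without tumour 2 (1.64, adjusted p = 0.0197) and a called difference without tumour 2 (2.85, adjusted p = 0.004).

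**Figure D4:**
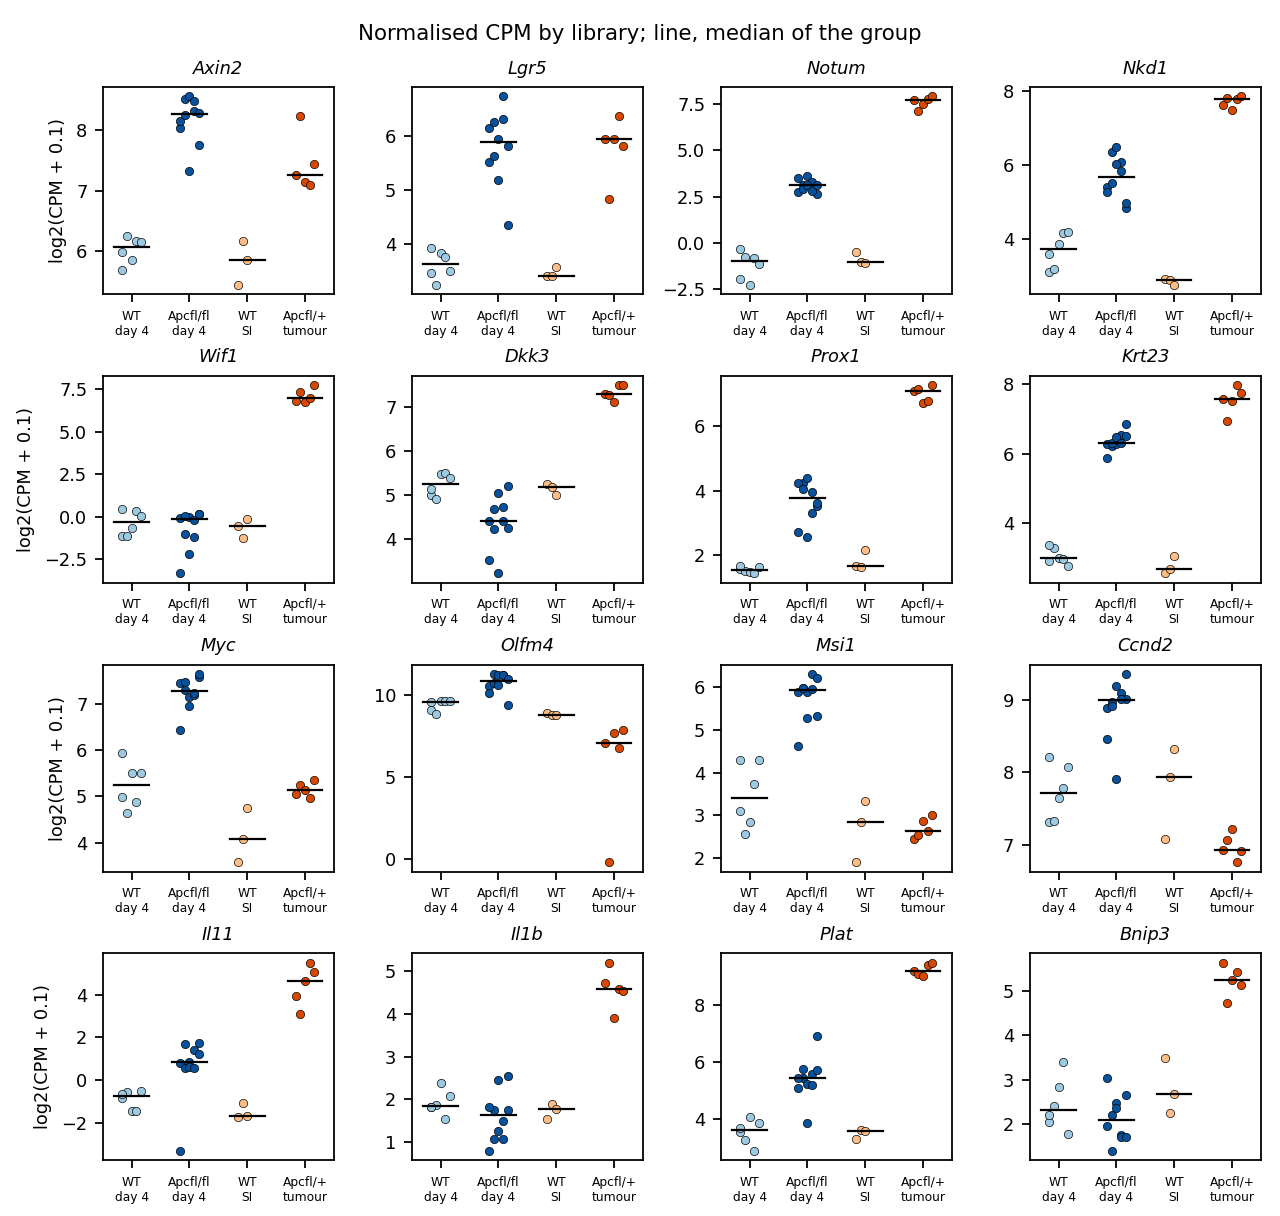
Points are libraries, lines the median of each of the 4 groups, and the y axis is log2 of CPM plus 0.1. Axin2 and Lgr5 rise in both arms, Notum, Nkd1, Prox1 and Krt23 rise again in tumours, Wif1 rises in tumours alone, and Olfm4 and Ccnd2 rise at day 4 and lie lower in tumours.

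Secreted inhibitors of Wnt were among the genes raised in tumours only. Wif1 (ENSMUSG00000020218, chromosome 10, bases 121033960 to 121100650), which binds Wnt ligands outside the cell, was between 0.351 and 1.3 CPM (median 0.742) in WT day 4 and between 0 and 1.02 CPM (median 0.808) in Apcfl/fl day 4. Its level was 0.593, 0.325 and 0.839 CPM in WT SI and 112, 165, 108, 129 and 216 CPM in the 5 tumours. All 19 other libraries lay at or below 1.3 CPM. The tumour effect of 7.94 ± 0.53 stood against a day 4 effect of 0.01 ± 0.31 (difference 7.94 ± 0.60, adjusted p = 2.41e-08). Dkk3 moved in opposite directions, falling by 0.74 on the log2 scale at day 4 and rising by 2.20 in tumours. It was there at 159, 156, 139, 181 and 182 CPM against 38.2, 36.5 and 32 CPM in WT SI. Dkk2 rose in tumours (2.51, and 0.23 at day 4), and Kremen1, a receptor of Dickkopf proteins, did so by less (0.92, and -0.05 at day 4). Dkk4 passed as lower in tumours, where it was at 0.0492, 0.0966, 0.0469, 0.0459 and 0.071 CPM, all under the limit of 3 reads, against 0.148, 0.325 and 0.42 CPM in WT SI. The difference of Dkk2 was not called in 11 of 24 fits that left out 1 library (highest adjusted p = 0.119, without WT SI 3), and that of Dkk4 in 12 of 24 fits that left out 1 library (highest adjusted p = 0.132, without WT SI 3). Dkk4 gained a day 4 call without WT day 4 library 6 (1.21, adjusted p = 0.0127). Dkk4 lost its tumour call in 5 of 24 fits that left out 1 library (highest adjusted p = 0.129, without WT SI 3).

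Over the 17 feedback genes tested, 7 rose and 1 fell at day 4 (median 0.50), and 12 rose and 2 fell in tumours (median 2.07). The difference was called as higher in tumours for 7 of 17 and as lower for 1, against 12.4% and 12.3% of all genes. Among the Wnt feedback genes the differences called as higher in tumours numbered 4 with a term for Gm13394 and 4 without the Cpa1 libraries, against 7 over all libraries. Apcdd1, a membrane inhibitor, was at 20.4, 181, 19.7, 17 and 26.9 CPM in tumours against 6.03, 6.89 and 7.29 CPM in WT SI, tumour 2 far above the rest, and its difference of 2.02 ± 0.72 was 0.69 (adjusted p = 0.194) without tumour 2. Nkd2 fell in tumours (-1.52) with no called difference, and Sfrp1 (-0.31 and 0.67), Sfrp5 (-0.55 and -1.64) and Draxin (-1.00 and 0.34) passed in neither arm. Dkk1 had too few reads to be tested. Apcdd1 kept its tumour call without tumour 2, at 1.64 (adjusted p = 0.000345). Apcdd1 gained a day 4 call without Apcfl/fl 8 (1.05, adjusted p = 0.0377) or WT day 4 library 5 (1.11, adjusted p = 0.0473) or tumour 2 (0.95, adjusted p = 0.00118). Apcdd1 lost its called difference in 10 of 24 fits that left out 1 library (highest adjusted p = 0.194, without tumour 2). Sfrp1 gained a called difference without Apcfl/fl 5 (1.16, adjusted p = 0.0197). Sfrp5 gained a tumour call in 4 of 24 fits that left out 1 library (highest adjusted p = 0.0428, without Apcfl/fl 3).

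Some nuclear components of the pathway were raised in tumours only. Ctnnb1, which encodes β-catenin, was between 588 and 930 CPM (median 797) in WT day 4 and between 379 and 1250 CPM (median 877) in Apcfl/fl day 4. It was at 787, 647 and 646 CPM in WT SI and 1610, 1230, 1490, 1590 and 1420 CPM in tumours. Its effect was 0.13 ± 0.17 at day 4 and 1.08 ± 0.26 in tumours, and the difference (0.95 ± 0.30) was not called without WT SI 2 (0.92, adjusted p = 0.0723) or WT SI 3 (0.91, adjusted p = 0.0748). Pygo2, a partner of β-catenin, rose in tumours (0.82, and 0.20 at day 4), whereas Pygo1 fell at day 4 (-1.04, and 0.73 in tumours). Tcf7l1 fell at day 4 (-1.16) and Tcf7l2, the main TCF of the adult gut, fell in tumours (-1.14). Bcl9 rose at day 4 (0.69), and none of these 3 had a called difference. Bcl9l passed in neither arm (0.29 and 0.02). Pygo2 gained a day 4 call without Apcfl/fl 1 (0.25, adjusted p = 0.00429). Pygo1 lost its called difference without WT SI 2 (1.73, adjusted p = 0.0528). Tcf7l1 lost its day 4 call without WT day 4 library 5 (-1.00, adjusted p = 0.0551). Tcf7l2 gained a day 4 call without Apcfl/fl 6 (-0.43, adjusted p = 0.0394) and a called difference in 6 of 24 fits that left out 1 library (highest adjusted p = 0.0496, without Apcfl/fl 2). Bcl9 gained a called difference in 4 of 24 fits that left out 1 library (highest adjusted p = 0.0477, without WT day 4 library 5). Bcl9l gained a day 4 call without Apcfl/fl 8 (0.40, adjusted p = 0.0383).

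Among 25 genes for Wnt ligands and receptors, 11 rose and 6 fell at day 4, and 10 rose and 4 fell in tumours. The shares of all genes were 26% and 22.4% at day 4 and 23.8% and 25.5% in tumours. The difference was called as higher in tumours for 3 and as lower for 2, against 12.4% and 12.3% of all genes. Among the Wnt ligands and receptors the differences called as higher in tumours numbered 8 without the 4 libraries that stood apart, against 3 over all libraries. Among the Wnt ligands and receptors the differences called as lower in tumours numbered 4 without the 4 libraries that stood apart, against 2 over all libraries. Wnt6 moved in opposite directions. It was between 1.8 and 2.68 CPM (median 1.94) in WT day 4 and between 0 and 1.54 CPM (median 0.684) in Apcfl/fl day 4, but 1.19, 0.814 and 1.26 CPM in WT SI and 9.94, 28.4, 8.39, 9.79 and 18.3 CPM in tumours. Its difference (5.23 ± 0.59, adjusted p = 4.65e-06) was the highest of these genes. The receptor gene Fzd10 was at 14.6, 12.3, 20.4, 13.1 and 8.16 CPM in tumours, against 0.593, 0.542 and 0.525 CPM in WT SI and no more than 0.993 CPM in any day 4 library (difference 4.93 ± 0.83, adjusted p = 0.000223). Wnt5a rose in tumours (2.12, and -0.01 at day 4). Wnt3, the ligand made by Paneth cells, had the lowest difference (-2.60 ± 0.56), rising at day 4 (1.97) and lying at -0.63 in tumours.

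Inflammatory and neutrophil genes were raised mainly in tumours. Of 22 genes for inflammatory cytokines and mediators, 2 rose and 3 fell at day 4 (median 0.02), while 15 rose and 1 fell in tumours (median 2.33). The difference was called as higher in tumours for 12 and as lower for 0. Among the inflammatory genes the differences called as higher in tumours numbered 7 without the Cpa1 libraries, against 12 over all libraries. Cxcl2, a chemokine that draws neutrophils, had the highest difference (4.95 ± 0.90, adjusted p = 0.000422). It was at 8.31, 15.4, 3.94, 10.5 and 11 CPM in tumours against 0.297, 0.325 and 0.472 CPM in WT SI, with between 0.392 and 0.949 CPM (median 0.621) in WT day 4 and between 0 and 1.87 CPM (median 0.187) in Apcfl/fl day 4. The 5 tumours lay above all other libraries. The prostaglandin synthase Ptgs2 (-0.12 at day 4 and 3.43 in tumours), Cxcl5 (0.75 and 4.95) and Il1b (-0.19 and 2.93) showed the same pattern, each with its difference called. Il11, a cytokine of the interleukin 6 family, was an early exception, since it rose at day 4 (2.18 ± 0.36) and further in tumours (6.56 ± 0.59), from 0.198, 0.38 and 0.21 CPM in WT SI to 15.3, 8.5, 24.3, 44.7 and 33.5 CPM. Csf2 had the lowest difference (-0.85 ± 0.66, adjusted p = 0.366). Csf2 gained a day 4 call without Apcfl/fl 8 (-1.08, adjusted p = 0.00555). Csf2 lost its tumour call without WT SI 1 (-0.93, adjusted p = 0.225).

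Of 14 neutrophil genes, 11 rose in tumours and 0 fell (median 3.14), against 2 up and 2 down at day 4 (median 0.008), with 10 differences called as higher in tumours. Among the neutrophil genes the differences called as higher in tumours numbered 5 without the Cpa1 libraries, against 10 over all libraries. S100a9, a calcium-binding protein abundant in neutrophils, was at 19.8, 35.8, 3.51, 14.2 and 19.7 CPM in tumours and 0.395, 0.163 and 0.157 CPM in WT SI. Its tumour effect was 6.23 ± 1.10, its day 4 effect -0.73 ± 0.61, and the difference 6.97 ± 1.23 (adjusted p = 0.000357). In WT SI 2 and WT SI 3 its level lay near the limit of 3 reads, so that the size of the tumour effect is uncertain. The chemokine receptor Cxcr2 (0.19 and 4.45) and Cd177 (0.09 and 4.47) rose in tumours only, and the lowest difference was that of Il1r2 (0.84, adjusted p = 0.261). Summed over the 14 genes, the level ran from 39.1 to 66.1 CPM in WT day 4, 11.4 to 52 in Apcfl/fl day 4, 37.6 to 55.1 in WT SI and 134 to 380 in tumours. For S100a9 the day 4 effect passed as a fall without Apcfl/fl 5 (-1.41, adjusted p = 0.0474), the library with the most S100a9 in its group.

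All 17 genes for extracellular proteases and their inhibitors rose in tumours (median 2.51), against 8 up and 2 down at day 4 (median 0.82), and the difference was called as higher in tumours for 13. Plat (ENSMUSG00000031538, chromosome 8, bases 22757727 to 22782844), the tissue plasminogen activator, was between 7.19 and 16.5 CPM (median 12) in WT day 4 and between 14.4 and 119 CPM (median 43.6) in Apcfl/fl day 4, and at 9.69, 12 and 11.7 CPM in WT SI and 594, 552, 521, 678 and 719 CPM in tumours. It thus rose early (2.04 ± 0.29) and further in tumours (5.78 ± 0.50), by 3.75 ± 0.50 more (adjusted p = 2.27e-05). Mmp13 rose in tumours alone (3.61, and 0.03 at day 4). Mmp14 rose in both (0.83 and 2.51), and Mmp7, an enzyme of Paneth cells, had the lowest difference (-0.26, adjusted p = 0.728). Mmp7 lost its tumour call in 4 of 24 fits that left out 1 library (highest adjusted p = 0.14, without WT SI 1).

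Hypoxia genes rose in 13 of 15 cases in tumours and fell in 1 (median 1.71), against 3 up and 4 down at day 4 (median -0.14), with 11 differences called as higher in tumours. Bnip3, a mitophagy receptor, was between 3.32 and 10.5 CPM (median 4.85) in WT day 4, between 2.52 and 8.13 CPM (median 4.15) in Apcfl/fl day 4, 11.1, 4.66 and 6.29 CPM in WT SI and 49.9, 26.4, 38.1, 43.4 and 35.3 CPM in tumours (difference 2.84 ± 0.45, adjusted p = 0.000115). Adm (-0.14 at day 4 and 2.55 in tumours), the adrenomedullin gene, had the next largest difference, and the glucose transporter Slc2a1 (0.75 and 2.91) rose further in tumours. Ndrg1 and Egln3 fell at day 4 (-1.59 and -0.64) and rose in tumours (0.95 and 1.71). Pfkfb3 had the lowest difference (0.02) and fell in both. Pfkfb3 lost its tumour call without WT SI 2 (-1.19, adjusted p = 0.0501) or WT SI 3 (-1.16, adjusted p = 0.0587).

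Fibroblast and matrix genes were raised in tumours in 14 of 20 cases (median 1.15) and in 4 of 20 at day 4 (median -0.01), with 11 differences called as higher in tumours and 0 as lower. Among the fibroblast and matrix genes the differences called as higher in tumours numbered 3 without the Cpa1 libraries, against 11 over all libraries. Col1a2, a chain of collagen I, was at 634, 826, 607, 642 and 842 CPM in tumours against 166, 235 and 256 CPM in WT SI, with between 181 and 370 CPM (median 217) in WT day 4 and between 67.5 and 586 CPM (median 191) in Apcfl/fl day 4 (difference 1.85 ± 0.53, adjusted p = 0.0145). That difference was not called without WT SI 1 (1.69, adjusted p = 0.0505). Lox, which crosslinks collagen, rose in both arms and further in tumours (1.53 and 4.07). Timp1 had the highest difference (2.56 ± 0.91) and Col6a3 the lowest (-0.15 ± 0.38, adjusted p = 0.812). The difference of Timp1 was not called in 14 of 24 fits that left out 1 library (highest adjusted p = 0.105, without WT SI 2). Of 10 endothelial genes 8 fell at day 4 and 6 rose in tumours, and 8 differences were called as higher in tumours. The differences of the 10 ran from Vwf (-0.50 at day 4 and 2.10 in tumours), the von Willebrand factor of vessel walls, down to Esam (0.25 and 0.60, difference not called). Cdh5 (-0.61 and 1.76) and Tek (-1.01 and 1.52) moved in opposite directions. Smooth muscle markers fell in 3 of 12 cases in tumours and 1 of 12 at day 4, against 25.5% and 22.4% of all genes, with no difference called. Among the smooth muscle markers the differences called as lower in tumours numbered 4 without the 4 libraries that stood apart, against 0 over all libraries. Their differences ranged from -1.62 for Synm to -0.16 for Tagln. Of 11 general epithelial markers 1 rose and 2 fell at day 4 and 4 rose in tumours, against 26%, 22.4% and 23.8% of all genes. Krt19 had the highest difference (0.01 and 1.29) and the homeobox gene Cdx1 the lowest (-0.41). Timp1 lost its day 4 call without Apcfl/fl 5 (0.88, adjusted p = 0.0581). Esam gained a day 4 call without Apcfl/fl 1 (0.29, adjusted p = 0.023) or WT day 4 library 5 (0.34, adjusted p = 0.0322). Esam lost its tumour call without tumour 5 (0.42, adjusted p = 0.064). Cdh5 lost its day 4 call without WT day 4 library 5 (-0.54, adjusted p = 0.066). Synm gained a called difference in 6 of 24 fits that left out 1 library (highest adjusted p = 0.045, without Apcfl/fl 9). Synm lost its tumour call without WT SI 2 (-1.31, adjusted p = 0.0621). Cdx1 gained a tumour call without Apcfl/fl 8 (-0.54, adjusted p = 0.0367) or tumour 2 (-0.82, adjusted p = 0.00851).

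Genes of BMP and TGF-β signalling rose in tumours in 14 of 23 cases with 0 lower (median 0.90), and at day 4 in 6 with 8 lower (median -0.17), with 11 differences called as higher in tumours. At day 4 the shares of all genes were 26% higher and 22.4% lower. Among the BMP and TGF-β genes the differences called as higher in tumours numbered 6 without the Cpa1 libraries, against 11 over all libraries. Chrdl1, a BMP antagonist, fell at day 4 (-1.14) and rose in tumours (1.98), as did the ligand gene Bmp4 (-0.45 and 1.41). Inhba, which encodes activin A, rose at both stages and further in tumours (1.26 and 3.67). Smad7, an inhibitor of the pathway, fell at day 4 and rose in tumours (-0.66 and 0.55). The receptor gene Bmpr1a had the lowest difference and passed in neither arm (0.23 and 0.06). The call of Bmp4 at day 4 was lost without WT day 4 library 3 (-0.41, adjusted p = 0.0577) or WT day 4 library 5 (-0.38, adjusted p = 0.0729), and that of Smad7 in tumours without WT SI 2 (0.53, adjusted p = 0.0607) or tumour 5 (0.41, adjusted p = 0.0876). In the EGF and ERK list 15 of 24 rose at each stage (medians 0.93 and 0.98). In this list 4 differences were called, all as higher in tumours, against 12.4% of all genes. Among the EGF and ERK genes the differences called as higher in tumours numbered 2 without the Cpa1 libraries and 9 without the 4 libraries that stood apart, against 4 over all libraries. The highest was that of the transcription factor Etv5 (1.60 and 4.07, difference 2.47 ± 0.33, adjusted p = 2.03e-05), with Fosl1 at the other end (-1.90, adjusted p = 0.121). Bmpr1a gained a day 4 call without Apcfl/fl 8 (0.30, adjusted p = 0.0192). Fosl1 lost its tumour call without WT SI 1 (1.38, adjusted p = 0.136) or WT SI 2 (1.74, adjusted p = 0.0822) or tumour 3 (1.45, adjusted p = 0.078).

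Genes of the foetal and revival programme, which mark the immature epithelium before birth and after injury, rose in 8 of 14 cases at day 4 with 1 lower (median 1.35) and in 11 of 14 in tumours with 0 lower (median 2.63). The difference was called as higher in tumours for 7. Among the foetal genes the differences called as higher in tumours numbered 3 without the Cpa1 libraries, against 7 over all libraries. Clu, the clusterin gene of revival stem cells, was between 15.9 and 126 CPM (median 20.8) in WT day 4 and between 14.6 and 1600 CPM (median 73.4) in Apcfl/fl day 4, and at 81.1, 13.1 and 11.2 CPM in WT SI and 2450, 461, 1640, 2270 and 2050 CPM in tumours. Its call at day 4 (2.54 ± 0.88) rested on Apcfl/fl 5, at 1600 CPM, and was lost without it (0.84, adjusted p = 0.171). The difference, not called over all libraries (3.12 ± 1.45, adjusted p = 0.119), then passed (4.82, adjusted p = 0.000681). Anxa1 (1.25 ± 0.44 and 3.90 ± 0.71) rose further in tumours, and its day 4 call was lost without Apcfl/fl 5 (0.66, adjusted p = 0.0559). Clu had the highest difference of the list and Ly6d, a surface protein, the next (0.43 at day 4 and 3.30 in tumours). Anxa5 rose in tumours alone (1.96, and 0.20 at day 4), and Msln had the lowest difference (-0.17, adjusted p = 0.967). Ly6d lost its called difference without WT SI 2 (2.65, adjusted p = 0.0557) or WT SI 3 (2.62, adjusted p = 0.0585). Msln gained a tumour call without Apcfl/fl 5 (2.41, adjusted p = 0.0149). Msln lost its day 4 call in 7 of 24 fits that left out 1 library (highest adjusted p = 0.975, without Apcfl/fl 5).

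By the same ranking, the 5 genes with the largest rise in tumours only were Bpifb5, Slc38a4, Wif1, Hp and Stra6. Slc38a4, an amino acid transporter, was at 401, 21.3, 359, 625 and 384 CPM in tumours and 1.29, 1.3 and 1.15 CPM in WT SI (day 4 effect 1.11 ± 0.52, tumour effect 8.16 ± 0.83). Tumour 2 was the lowest of the 5 tumours for Slc38a4 and, at 2.9 CPM against 70.1 to 94.2 CPM, for Bpifb5. Bpifb5 lay at or under the limit of 3 reads in every day 4 library, so that no day 4 fold is given for it. Hp, the haptoglobin gene, was at 98.3, 65.8, 44.9, 94.7 and 150 CPM in tumours, but varied from 0.23 to 35.2 CPM in WT day 4 and from 0 to 47.1 CPM in Apcfl/fl day 4. Its difference was not called without WT SI 1 (7.31, adjusted p = 0.0545) or WT SI 2 (7.89, adjusted p = 0.0522) or WT SI 3 (7.47, adjusted p = 0.0604). Stra6, the retinol receptor, was at 64.8, 175, 51.5, 59.8 and 41.5 CPM in tumours and 1.38, 0.597 and 0.0525 CPM in WT SI. The 5 largest falls in tumours only were those of the lactate transporter Slc5a12 (-6.93, and -0.07 at day 4), the mannose-binding lectin gene Mbl2 (-6.58, and 0.06 at day 4), Gm15292 (-5.04), Gm10800 (-4.96) and Gm7849 (-4.41). The last 3 share 55.7%, 38.2% and 100% of their 36-base words with other genes, so that their counts are uncertain. Slc38a4 gained a day 4 call without tumour 2 (1.11, adjusted p = 0.00659), where its fold stayed the same and only the pooled error changed. Stra6 gained a day 4 call without WT day 4 library 4 (2.07, adjusted p = 0.0448). Gm10800 lost its called difference in 5 of 24 fits that left out 1 library (highest adjusted p = 0.198, without Apcfl/fl 8).

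Of 13 Paneth cell genes 1 rose and 1 fell at day 4, whereas 9 fell and 2 rose in tumours (medians -0.19 and -1.80). Among the Paneth cell genes the differences called as lower in tumours numbered 3 without the Cpa1 libraries, against 5 over all libraries. Defa17 fell by 3.21 on the log2 scale in tumours (-0.14 at day 4). Ang4, an antimicrobial ribonuclease, was at 18.3, 47.4, 42.4, 20.6 and 20.5 CPM in tumours against 197, 204 and 162 CPM in WT SI. Defa26 had the lowest difference (-3.60 ± 0.72) and Habp2 the highest (0.49 and 3.10). Defensin genes share much of their sequence (93.1% of the 36-base words of Defa17 and 60.5% of those of Defa26), which makes single members uncertain. Tuft cells showed the converse order, with 9 of 10 genes down at day 4 (median -1.39) but 2 down and 1 up in tumours (median -0.13), and 6 differences called as higher in tumours. Among the tuft cell genes the differences called as higher in tumours numbered 3 with a term for Gm13394 and 3 without the Cpa1 libraries, against 6 over all libraries. Dclk1, a tuft cell kinase, was between 11 and 19.3 CPM (median 17.1) in WT day 4, between 2.97 and 7.06 CPM (median 5.28) in Apcfl/fl day 4, 21.4, 15.8 and 20.6 CPM in WT SI and 26, 12.7, 25, 35.7 and 36.5 CPM in tumours (difference 2.18 ± 0.36, adjusted p = 0.000189). Sh2d6 had a slightly larger difference (-2.44 and -0.10), Avil had the highest difference (-0.36 and 4.54) and Ltc4s the lowest (0.15). Avil passed as a fall at day 4 without Apcfl/fl 5 (-0.77, adjusted p = 0.00152), and Dclk1 as a rise in tumours without tumour 2 (0.68, adjusted p = 0.0292). Ltc4s lost its tumour call without WT SI 1 (-0.88, adjusted p = 0.0603) or WT SI 3 (-0.84, adjusted p = 0.0687).

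Enteroendocrine genes fell in 11 of 18 cases at day 4 with 2 higher, and in 14 of 18 in tumours with 1 higher. Among the enteroendocrine genes the differences called as lower in tumours numbered 2 with a term for Gm13394 and 2 without the Cpa1 libraries, against 4 over all libraries. Neurog3, the factor that commits progenitors to this lineage, was between 1.96 and 3.53 CPM (median 2.79) in WT day 4 and between 4.14 and 9.93 CPM (median 8.52) in Apcfl/fl day 4, but at 1.33, 1.3 and 1.42 CPM in WT SI and 0.344, 0, 0.797, 0.459 and 0.958 CPM in tumours. It rose at day 4 (1.50) and fell in tumours (-1.36). Its tumour call was lost without WT SI 3 (-1.32, adjusted p = 0.0516). The neurotensin gene Nts had the lowest difference (-2.92, adjusted p = 0.0217) and Pyy the highest (3.37, adjusted p = 0.0205). For Pyy, at 24.7 CPM in tumour 2, the difference was not called without WT SI 1 (3.28, adjusted p = 0.0541) or WT SI 3 (3.27, adjusted p = 0.0626) or tumour 2 (2.08, adjusted p = 0.0577). Goblet cell genes rose in 2 and fell in 6 of 12 cases at day 4, and rose in 5 and fell in 1 in tumours. The shares of all genes were 26% and 22.4% at day 4 and 23.8% and 25.5% in tumours. Retnlb had the highest difference, at 9.94, 5.6, 5.06, 17.6 and 9.3 CPM in tumours against 0.198, 0.163 and 0 CPM in WT SI, and Ccl6 the lowest (-0.68). The WT SI levels of Retnlb lay near or under the limit of 3 reads. Agr2, a goblet cell chaperone, fell at day 4 (-0.58) and rose in tumours (1.91), its fall being lost in 9 of 24 fits that left out 1 library (highest adjusted p = 0.0963, without WT day 4 library 6). Pyy kept its tumour call without tumour 2, at 1.89 (adjusted p = 0.0207). Retnlb gained a day 4 call in 5 of 24 fits that left out 1 library (highest adjusted p = 0.0452, without Apcfl/fl 2). Ccl6 gained a tumour call without Apcfl/fl 7 (-0.91, adjusted p = 0.0345) or Apcfl/fl 8 (-0.91, adjusted p = 0.0402) or tumour 2 (-1.34, adjusted p = 0.00406).

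Genes of the cell cycle and of ribosome building were raised more broadly at day 4 than in tumours. Of 30 cell cycle genes 29 rose at day 4 and 1 fell (median 1.19), while 8 rose and 1 fell in tumours (median 0.49). The differences called numbered 11 lower in tumours and 0 higher. Among the cell cycle genes the differences called as lower in tumours numbered 5 with a term for Ddx3y, 2 with a term for Gm13394 and 4 without the Cpa1 libraries, against 11 over all libraries. Mki67, the proliferation antigen, was between 114 and 142 CPM (median 128) in WT day 4, between 168 and 291 CPM (median 240) in Apcfl/fl day 4, 242, 354 and 327 CPM in WT SI and 235, 169, 229, 235 and 230 CPM in tumours, with the lowest difference of the list (-1.36 ± 0.23, adjusted p = 0.000218). Its fall in tumours was lost without WT SI 2 (-0.37, adjusted p = 0.17) or WT SI 3 (-0.44, adjusted p = 0.112) or tumour 2 (-0.41, adjusted p = 0.0718). E2f1 rose by 1.50 at day 4 and was at 0.33 in tumours. Cdk1 rose in both (1.29 and 0.94), and E2f2 had the highest difference (0.25, adjusted p = 0.544). All 24 genes of ribosome building rose at day 4 (median 1.31) and 10 did so in tumours (median 0.43), with 13 differences called as lower in tumours. Among the genes of ribosome building the differences called as lower in tumours numbered 7 with a term for Ddx3y, 5 with a term for Gm13394 and 5 without the Cpa1 libraries, against 13 over all libraries. Nucleolin, Ncl, was between 310 and 585 CPM (median 389) in WT day 4 and between 616 and 1600 CPM (median 1080) in Apcfl/fl day 4 but at 91.2, 185 and 191 CPM in WT SI and 144, 123, 130, 121 and 132 CPM in tumours (effects 1.42 ± 0.22 and -0.26 ± 0.30). Utp20 (1.60 and 0.05) and Dkc1 (1.43 and 0.28) rose at day 4 only, and Rrn3, an initiation factor of RNA polymerase I, had the highest difference (-0.14). E2f2 gained a tumour call without tumour 3 (-0.56, adjusted p = 0.0384).

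Myc, known as a driver of both programmes, led by day 4 effect the 43 genes that rose at both stages and further at day 4. It was between 24.9 and 61.2 CPM (median 38.3) in WT day 4 and between 86.2 and 201 CPM (median 155) in Apcfl/fl day 4. It was at 11.8, 16.8 and 26.9 CPM in WT SI and 33.3, 37.9, 35.3, 31 and 41.1 CPM in tumours, with effects of 1.99 ± 0.20 and 0.95 ± 0.28. The difference (-1.04 ± 0.33, adjusted p = 0.0231) was not called without WT SI 3 (-0.66, adjusted p = 0.181), and the tumour effect not without WT SI 1 (0.72, adjusted p = 0.0613). Erfe (1.96 and 0.73), Cep72 (1.95 and 1.30), the dCMP deaminase gene Dctd (1.90 and 0.90) and the Myc target Cdca7 (1.84 and 0.99) came next. The genes that fell further at day 4 were led by the glucuronosyltransferase gene Ugt1a1 (-4.60 and -2.15) and Prss30 (-3.23 and -1.68). They were followed by the sulfotransferase gene Sult1d1 (-3.12 and -1.37), Fer1l6 (-2.31 and -1.16) and Neurl1b (-2.20 and -1.23). Ugt1a1 shares exons with its neighbours of the same cluster (82.7% of its exon bases). Erfe lost its tumour call in 6 of 24 fits that left out 1 library (highest adjusted p = 0.186, without WT SI 1). Cep72 lost its called difference in 15 of 24 fits that left out 1 library (highest adjusted p = 0.137, without WT SI 2). Dctd lost its called difference without WT SI 2 (-1.00, adjusted p = 0.0612) or WT SI 3 (-0.89, adjusted p = 0.0935). Ugt1a1 lost its called difference without WT SI 2 (2.23, adjusted p = 0.0695) or WT SI 3 (2.36, adjusted p = 0.0609). Prss30 lost its called difference in 8 of 24 fits that left out 1 library (highest adjusted p = 0.111, without WT SI 3). Sult1d1 lost its tumour call without WT SI 1 (-1.09, adjusted p = 0.105) and its called difference in 8 of 24 fits that left out 1 library (highest adjusted p = 0.121, without WT SI 2). Fer1l6 lost its tumour call without WT SI 3 (-0.94, adjusted p = 0.0509) and its called difference in 16 of 24 fits that left out 1 library (highest adjusted p = 0.171, without WT SI 2). Neurl1b lost its called difference without WT SI 1 (0.92, adjusted p = 0.0536) or tumour 5 (0.82, adjusted p = 0.06).

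Stem cell genes split by stage. Of 18 tested, 16 rose at day 4 and 0 fell (median 1.84), while 11 rose and 2 fell in tumours (median 1.20). The difference was called as lower in tumours for 8 and as higher for 0. Msi1, an RNA-binding protein, was between 5.75 and 19.5 CPM (median 10.8) in WT day 4 and between 24.4 and 79.7 CPM (median 60.9) in Apcfl/fl day 4, but at 3.61, 7 and 10 CPM in WT SI and 5.36, 5.65, 7.22, 6.11 and 7.95 CPM in tumours. The effects were 2.24 ± 0.28 and -0.09 ± 0.37 (adjusted p of the difference = 0.000846). Slc12a2 (1.85 and 0.30), Cdk6 (1.51 and -0.41) and Rgmb (1.02 and -0.13) rose at day 4 only, with differences called. So did the water channel Aqp4 (1.36 and -0.55), whose difference was not called in 18 of 24 fits that left out 1 library (highest adjusted p = 0.114, without WT SI 2). Nrn1 rose in tumours (1.30, difference not called) and Clca3b fell there (-1.89, and 0.18 at day 4). Aqp4 kept its called difference without tumour 2, at -3.32 (adjusted p = 3.09e-06). Aqp4 gained a tumour call without tumour 2 (-1.96, adjusted p = 2.46e-05). Nrn1 gained a called difference without tumour 2 (1.46, adjusted p = 0.0131). Nrn1 lost its tumour call in 4 of 24 fits that left out 1 library (highest adjusted p = 0.0651, without WT SI 1).

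Olfm4 (ENSMUSG00000022026, chromosome 14, bases 79984081 to 80023139), an abundant secreted protein of crypt base stem cells, rose at day 4 and fell in tumours. It was between 455 and 813 CPM (median 787) in WT day 4 and between 691 and 2530 CPM (median 1880) in Apcfl/fl day 4, and at 490, 441 and 452 CPM in WT SI and 134, 0.773, 210, 108 and 236 CPM in tumours. All 5 tumours lay below the 3 WT SI libraries, tumour 2 by far the lowest, and the day 4 groups overlapped. The effects were 1.39 ± 0.52 (adjusted p = 0.0282) and -1.74 ± 0.68 (adjusted p = 0.0361), with a difference of -3.14 ± 0.85 (adjusted p = 0.00962). The single effects lay near the threshold, the rise being lost without WT day 4 library 1 (1.34, adjusted p = 0.0566) or WT day 4 library 2 (1.30, adjusted p = 0.0621) and the fall not called in 5 of 24 fits that left out 1 library (highest adjusted p = 0.0806, without WT SI 1).

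The genes that rose by the tests at day 4 only and by the most were Pla2g5 (3.30 and 0.62), a secreted phospholipase, and Rps6ka6 (2.39 and 0.15). Next came Msi1, Psat1 (2.06 and 0.50), an enzyme of serine synthesis, and Rnf157 (2.05 and 0.68). Rps6ka6 was between 1.98 and 6.11 CPM (median 3.74) in WT day 4 and between 16.3 and 27 CPM (median 20) in Apcfl/fl day 4, and at 4.6, 7.1 and 8.03 CPM in WT SI and 8.31, 2.17, 8.9, 7.99 and 9.12 CPM in tumours. The differences of Pla2g5 and Psat1 were not called without WT SI 2 (-1.73, adjusted p = 0.144) and without WT SI 2 (-1.22, adjusted p = 0.115) or WT SI 3 (-1.52, adjusted p = 0.0581) respectively. Those that fell at day 4 only were led by Akr1c14 (-3.58 and -0.60) and Gsta2 (-3.33 and 0.22). Next came Aldh1a7 (-2.86 and -1.07), the gasdermin gene Gsdmc4 (-2.86 and 2.74, difference 5.60 ± 1.48) and the alcohol dehydrogenase Adh1 (-2.85 and -0.15). Adh1 was between 220 and 724 CPM (median 652) in WT day 4 and between 31.8 and 159 CPM (median 78) in Apcfl/fl day 4, and at 467, 126 and 302 CPM in WT SI and 223, 132, 470, 241 and 279 CPM in tumours. Gsta2 and Gsdmc4 share 57.8% and 47.5% of their 36-base words with other genes. Rnf157 lost its called difference in 4 of 24 fits that left out 1 library (highest adjusted p = 0.0766, without WT SI 2). Akr1c14 lost its called difference without WT SI 2 (2.57, adjusted p = 0.0787) or WT SI 3 (2.84, adjusted p = 0.0692). Aldh1a7 gained a tumour call without tumour 3 (-1.49, adjusted p = 0.0188). Aldh1a7 lost its called difference in 17 of 24 fits that left out 1 library (highest adjusted p = 0.146, without WT SI 2). Gsdmc4 kept its called difference without tumour 2, at 2.86 (adjusted p = 0.0356). Gsdmc4 gained a tumour call in 5 of 24 fits that left out 1 library (highest adjusted p = 0.0492, without Apcfl/fl 8).

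Of the 622 genes that moved in opposite directions, 322 were lower at day 4 and higher in tumours. By the same ranking, the largest differences among them were those of Bmf (-1.17 and 1.76), which promotes cell death, and Ndrg1. Next came the potassium channel gene Kcnj2 (-1.31 and 1.15), Ypel2 (-1.16 and 0.90) and Sh3d21 (-1.14 and 0.91). The other 300 were higher at day 4 and lower in tumours, led by the sodium channel subunit Scn2b (1.84 and -1.58) and Alms1 (1.74 and -0.66). They were followed by Dnah8 (0.98 and -1.36), the replication factor Ticrr (1.43 and -0.84) and Mdn1 (1.45 and -0.56), which acts in ribosome building. Ccnd2, a cyclin, was between 159 and 297 CPM (median 209) in WT day 4 and between 239 and 655 CPM (median 509) in Apcfl/fl day 4. It was at 135, 244 and 319 CPM in WT SI and 121, 133, 148, 108 and 120 CPM in tumours, and its fall in tumours (-0.88) was lost without WT SI 3 (-0.58, adjusted p = 0.114). The controls of the arms were themselves far apart for some of these genes, Mdn1 being between 16.9 and 31.5 CPM (median 27.6) in WT day 4 and at 113, 143 and 137 CPM in WT SI. Alms1 lost its tumour call in 6 of 24 fits that left out 1 library (highest adjusted p = 0.133, without WT SI 2). Ticrr lost its tumour call without WT SI 2 (-0.61, adjusted p = 0.117) or WT SI 3 (-0.76, adjusted p = 0.0631). Mdn1 lost its tumour call in 9 of 24 fits that left out 1 library (highest adjusted p = 0.14, without WT SI 2).

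Of 16 interferon-stimulated genes 2 rose and 1 fell at day 4 (median 0.39), 0 rose and 9 fell in tumours (median -1.46), and 10 differences were called as lower in tumours. Among the interferon-stimulated genes the differences called as lower in tumours numbered 2 with a term for Gm13394, against 10 over all libraries. Isg15, a ubiquitin-like protein induced by interferon, was between 16.7 and 65 CPM (median 58.5) in WT day 4 and between 20.9 and 192 CPM (median 45.9) in Apcfl/fl day 4. It was at 4.75, 18.8 and 17.8 CPM in WT SI and 2.26, 1.64, 0.984, 0.965 and 1.7 CPM in tumours (difference -3.82 ± 0.79, adjusted p = 0.00139). Rsad2 rose at day 4 (1.89) and was at -1.47 in tumours, and Gbp2 had the highest difference (0.29, adjusted p = 0.74). Apcfl/fl 5, 6 and 7 held the most Isg15, at 147, 156 and 192 CPM. Among day 4 libraries with Gm13394 under 10 CPM the day 4 effect of Isg15 was a fall (-0.84, adjusted p = 0.00755), against 1.09 (adjusted p = 0.19) among those above it. T cell genes fell at both stages, 13 of 15 at day 4 (median -1.53) and 11 of 15 in tumours (median -1.86). Cd3e had the lowest difference (-1.71 and -3.37) and Cd5 the highest (-1.87 and -0.29). Rsad2 gained a tumour call without tumour 5 (-1.94, adjusted p = 0.0423). Gbp2 gained a tumour call without tumour 5 (-1.39, adjusted p = 0.00623). Cd5 lost its called difference without WT SI 2 (1.56, adjusted p = 0.0621) or WT SI 3 (1.30, adjusted p = 0.097).

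Over all genes 26% rose and 22.4% fell at day 4, and 23.8% rose and 25.5% fell in tumours, and the counts of the following lists are to be read against these shares. Of 16 targets of YAP, 9 rose and 3 fell at day 4 and 8 rose and 1 fell in tumours, with 4 differences called. The tissue factor gene F3 rose further in tumours (0.84 and 2.49), and Ankrd1 had the highest difference (2.92, adjusted p = 0.611) and Areg the lowest (-1.39, adjusted p = 0.087), neither called. Of 17 genes of Notch signalling, 7 rose and 4 fell at day 4 and 5 rose and 1 fell in tumours. Among the notch genes the differences called as higher in tumours numbered 5 without the 4 libraries that stood apart, against 3 over all libraries. Of the pathway's targets Hes5 rose at day 4 only (1.54 and -1.81), and Hey1 moved in opposite directions (-0.63 and 3.11). Of 17 checkpoint and senescence genes, 7 rose and 2 fell at day 4 and 4 rose in tumours. Among the checkpoint genes the differences called as higher in tumours numbered 5 without the 4 libraries that stood apart, against 3 over all libraries. Cdkn1c, an inhibitor of cyclin-dependent kinases, had the highest difference (-0.36 and 3.10, difference 3.46 ± 0.29, adjusted p = 5.52e-08). Zmat3 had the lowest (-1.20, adjusted p = 0.0627). Ankrd1 gained a called difference without Apcfl/fl 5 (5.69, adjusted p = 0.00886). Ankrd1 lost its day 4 call without Apcfl/fl 5 (1.31, adjusted p = 0.0856) and its tumour call in 5 of 24 fits that left out 1 library (highest adjusted p = 0.0903, without WT SI 1). Hes5 gained a tumour call without WT day 4 library 1 (-1.81, adjusted p = 0.0482) or WT day 4 library 3 (-1.81, adjusted p = 0.0497) or tumour 2 (-2.19, adjusted p = 0.0393). Hey1 lost its day 4 call in 5 of 24 fits that left out 1 library (highest adjusted p = 0.0814, without WT day 4 library 5). Cdkn1c gained a day 4 call in 5 of 24 fits that left out 1 library (highest adjusted p = 0.049, without tumour 2). Zmat3 gained a tumour call without tumour 2 (-0.85, adjusted p = 0.049) and a called difference without Apcfl/fl 8 (-1.30, adjusted p = 0.0171) or WT SI 1 (-1.45, adjusted p = 0.0382) or tumour 2 (-1.56, adjusted p = 0.0109). Zmat3 lost its day 4 call in 8 of 24 fits that left out 1 library (highest adjusted p = 0.0818, without Apcfl/fl 10).

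Of 19 genes of oxidative metabolism 14 fell and 2 rose at day 4, and 7 fell and 1 rose in tumours, with 7 differences called as higher in tumours and 1 as lower. Among the genes of oxidative metabolism the differences called as higher in tumours numbered 2 with a term for Gm13394 and 3 without the Cpa1 libraries, against 7 over all libraries. Acaa2, an enzyme of fatty acid oxidation, fell at day 4 only (-1.21 and 0.08), while the coactivator Ppargc1a fell further in tumours (-0.96 and -2.82). Of 12 macrophage genes 1 rose and 4 fell at day 4 and 1 rose and 1 fell in tumours. Among the macrophage genes the differences called as higher in tumours numbered 6 without the 4 libraries that stood apart, against 2 over all libraries. Aif1 had the lowest difference (-0.26), and Cd14 rose further in tumours (1.05 and 2.89). Of 12 B and plasma cell genes 5 fell at day 4 and 2 in tumours, and Pou2af1 had the highest difference (1.73). Of 7 MHC class II genes 4 fell at day 4 and 3 in tumours with no difference called, from Ciita (-0.70) to Cd74 (0.21). Of 10 enteric nerve genes 7 fell at day 4, and 5 fell and 1 rose in tumours, from Elavl4 (-0.71) to Ret (-0.34 and 1.21). In a list of 114 Wnt genes that the study names, 103 rose and 2 fell at day 4 and 74 rose and 6 fell in tumours. Whether that list is independent of these libraries was not checked. Differences were called as higher in tumours for 9 and as lower for 22, with Nr2e3 lowest (1.98 and -1.39) and the endoderm factor Sox17 highest (1.02 and 5.49). Among the 114 Wnt genes the differences called as higher in tumours numbered 5 without the Cpa1 libraries and 19 without the 4 libraries that stood apart, against 9 over all libraries. Among the 114 Wnt genes the differences called as lower in tumours numbered 40 without the 4 libraries that stood apart, against 22 over all libraries. Aif1 gained a day 4 call without Apcfl/fl 8 (-0.62, adjusted p = 0.00257) and a tumour call without Apcfl/fl 8 (-0.66, adjusted p = 0.0158) or tumour 5 (-0.88, adjusted p = 0.0359). Pou2af1 lost its called difference in 5 of 24 fits that left out 1 library (highest adjusted p = 0.111, without WT SI 3). Ciita kept its day 4 call without WT day 4 library 4, at -0.55 (adjusted p = 0.0454). Ciita gained a called difference without WT day 4 library 4 (-1.01, adjusted p = 0.0498). Cd74 gained a tumour call without Apcfl/fl 8 (-0.73, adjusted p = 0.0475) or tumour 1 (-0.87, adjusted p = 0.0456) or tumour 5 (-0.94, adjusted p = 0.0356). Ret gained a day 4 call without Apcfl/fl 5 (-0.48, adjusted p = 0.0352). Nr2e3 lost its tumour call without WT SI 2 (-1.35, adjusted p = 0.0509).

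Of 11 genes of the exocrine pancreas 11 fell at day 4 (median -5.77) and none was called in tumours over all libraries. The fall rested on 2 WT day 4 libraries. In CPM without scaling factors the list summed to 1280 in WT day 4 library 1 and 690 in library 4. The remaining WT day 4 libraries held 8.84 to 11.7 CPM, against 11.6 to 61.1 CPM in Apcfl/fl day 4, and so showed no such fall. Cpa1, a pancreatic peptidase (-5.97 at day 4 and -1.15 in tumours), was above 1 CPM in 2 of 6 WT day 4, 1 of 10 Apcfl/fl day 4, 1 of 3 WT SI and 1 of 5 tumour libraries. Pnliprp1 had the highest difference (6.28) and Cela1 the lowest (3.29). Without these 5 libraries the number of genes whose effects differed was 2947 against 5486. That fit also held fewer libraries, and without WT SI 3 alone, at 0.21 CPM of Cpa1, the number was 3603. Summed over the 11 genes, the level was 10.2 to 1560 CPM in WT day 4, 9.75 to 59.8 in Apcfl/fl day 4, 6.83 to 1250 in WT SI and 174 to 1130 in tumours. Some markers of the site along the small intestine differed too. Pdx1, of the duodenum, was at 3.35, 0.724, 2.06, 17.7 and 36.1 CPM in tumours and 0.297, 0.325 and 0.472 CPM in WT SI but between 0.85 and 33.1 CPM (median 10.1) in WT day 4 and between 1.56 and 16.3 CPM (median 3.82) in Apcfl/fl day 4, while the distal genes Nts and Cubn fell in tumours. Of 7 markers of the proximal small intestine tested, 3 rose and 1 fell in tumours. Of 7 distal markers tested, 2 rose and 3 fell, against 23.8% and 25.5% of all genes. The part of pancreatic RNA and of site along the intestine in these results was not tested. Cpa1 kept its day 4 call without Apcfl/fl 7, at -9.18 (adjusted p = 0.00295). Cpa1 gained a tumour call without tumour 5 (-7.79, adjusted p = 0.0175) and a called difference without WT SI 1 (13.42, adjusted p = 0.0484). Pnliprp1 kept its called difference without WT SI 1, at 10.47 (adjusted p = 0.000789). Pnliprp1 gained a tumour call without WT SI 1 (6.46, adjusted p = 0.0027). Cela1 gained a tumour call without WT SI 1 (5.09, adjusted p = 0.00272) and a called difference in 6 of 24 fits that left out 1 library (highest adjusted p = 0.0456, without WT day 4 library 2). Cela1 lost its day 4 call in 11 of 24 fits that left out 1 library (highest adjusted p = 0.549, without WT day 4 library 1). Pdx1 gained a day 4 call in 5 of 24 fits that left out 1 library (highest adjusted p = 0.0494, without Apcfl/fl 1).

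**Figure D5:**
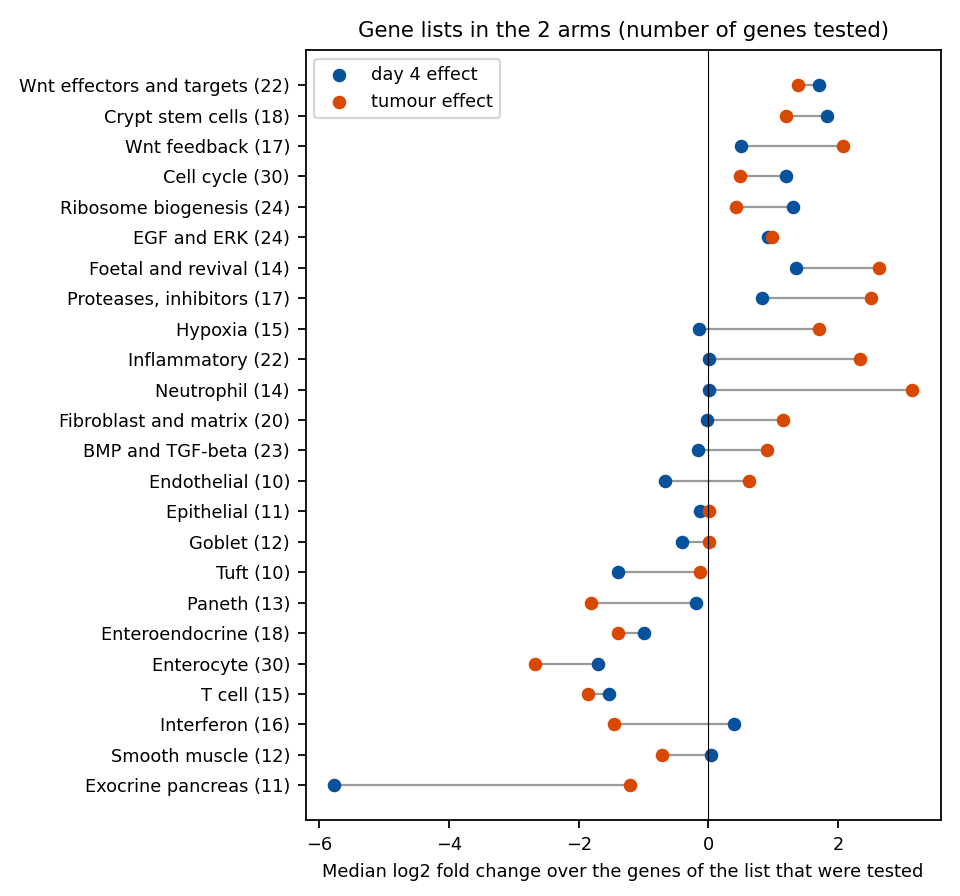
For each gene list, with the number of its genes tested in brackets, a point gives the median log2 fold change at day 4 and another that in tumours. The 2 points lie close together for Wnt effectors and targets (1.71 and 1.38) and far apart for neutrophil (0.008 and 3.14) and exocrine pancreas genes (-5.77 and -1.21). The day 4 value of the pancreas genes follows 2 of 6 WT day 4 libraries with much pancreatic RNA.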

How the data were processed

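RNA-seq of small intestinal tissue was used from 24 of 53 libraries. The authors deposited 1 table of raw counts per Ensembl gene, and the notes and methods name Trim Galore 0.6.4, FastQC 0.11.8, HISAT2 2.1.0 on GRCm38 and featureCounts 1.6.4 for paired reads of 36 bases. How strand and reads with several matches were treated is not given in the sources used here. Groups came from the labels. The study's reporting summary describes replicates as separate mice. The p-values set differences of group means against the variation between libraries of a group, pooled over the 4 groups and moderated over genes.

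Genes were filtered with filterByExpr, which left 22202 of 55421, scaled with TMM and tested two-sided in 1 quasi-likelihood fit of edgeR 4.0.16 (R 4.3.3) over 4 groups, with Benjamini-Hochberg adjustment over all genes tested and a threshold of 0.05. Effects were Apcfl/fl day 4 against WT day 4, tumours against WT SI, and their difference. The SE is the size of the log2 fold change divided by the square root of its F statistic. Classes follow from the 3 calls. Named were Apc, all genes of 4 Wnt and stem cell lists, from each other list the highest and lowest difference and up to 6 more, and the 5 genes with the largest effect in each class and direction among protein-coding genes whose mean log2 CPM reached 3 and whose groups did not overlap. Some genes that this rule picks are not reported here. The members and lists were chosen with earlier results of these data known.

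Alternatives were RLE scaling, DESeq2 1.42.0, limma 3.58.1 voom with quality weights, no filter, a replicate block, terms for Ddx3y and Gm13394, fits of 2 groups alone, a fold threshold and each library left out in turn. The fit was first tested on simulated data. Totals ran from 516985 to 32824795 counts per library.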

Additional observations from a re-analysis of the deposited data

Results flagged for a closer look

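Among the genes named, 618 groups of levels were tested for 1 library far from the others (Dixon's test on log2 of CPM plus 0.5, 95% level, groups of 5 to 10 libraries), and 82 were marked, where chance marks about 1 in 20. The marks gathered in a few libraries, 26 in tumour 2, 15 in Apcfl/fl day 4 library 8, 15 in library 1 and 7 in library 5 of that group. Library 1 had 516985 reads, so that a level of 0 there lies under its limit of 3 reads, 5.8 CPM. Tumour 2 was the lowest of its group for Wnt3 (0.676 CPM), Olfm4 (0.773 CPM), Nrn1 (0.869 CPM), Mki67 (169 CPM), Alpi (8.21 CPM), Clu (461 CPM), Cd74 (157 CPM), Esam (15.5 CPM), Gkn3 (14.1 CPM), Acaa2 (68.1 CPM), Rps6ka6 (2.17 CPM), Aqp5 (4.2 CPM), Faim2 (3.19 CPM), Asb4 (0.579 CPM), Cfi (54.9 CPM), Slc2a7 (0.145 CPM), Cep72 (21.8 CPM), Sult1d1 (24.7 CPM), Bpifb5 (2.9 CPM), Slc38a4 (21.3 CPM) and Ticrr (7.1 CPM), and the highest for Apcdd1 (181 CPM), Dkk2 (42.3 CPM), Kremen1 (70.8 CPM), Tcf7l1 (3.86 CPM) and Sh3d21 (41.5 CPM). Apcfl/fl day 4 library 8 was the lowest of its group for Kremen1 (12.1 CPM), Ctnnb1 (379 CPM), Bcl9 (24.5 CPM), Bcl9l (19.2 CPM), Clca3b (113 CPM), Anpep (377 CPM), Slc15a1 (41.7 CPM), Cdh5 (4.31 CPM), Tek (1.92 CPM), Mmp14 (26 CPM), Zmat3 (15 CPM), Bmpr1a (76.1 CPM) and Apc (41 CPM), and the highest for Csf2 (3.84 CPM) and Gm10800 (1.08 CPM). Apcfl/fl day 4 library 1 was the lowest of its group for Nkd2 (0 CPM), Pygo2 (34.1 CPM), Nrn1 (0 CPM), E2f1 (13 CPM), E2f2 (16.3 CPM), Il11 (0 CPM), Lox (0 CPM), Synm (3.25 CPM), Esam (13 CPM), Adm (0 CPM), Bmp4 (4.88 CPM), Chrdl1 (0 CPM), Hey1 (0 CPM), Gm15292 (0 CPM) and Sh3d21 (4.88 CPM). Apcfl/fl day 4 library 5 was the lowest of its group for Neurog3 (4.14 CPM), and the highest for Sfrp2 (3.21 CPM), Avil (28.5 CPM), Anxa5 (114 CPM), Clu (1600 CPM), Msln (145 CPM) and Ankrd1 (9.22 CPM). Of the other libraries, Apcfl/fl day 4 library 10 the highest for Gulo (56.6 CPM), Apcfl/fl day 4 library 7 the highest for Cpa1 (2.89 CPM), Apcfl/fl day 4 library 7 the lowest for Fer1l6 (1.79 CPM), WT day 4 library 2 the lowest for Elavl4 (1.01 CPM), WT day 4 library 3 the highest for S100a9 (4.39 CPM), WT day 4 library 4 the highest for Draxin (1.37 CPM), Fzd10 (0.85 CPM), Clu (126 CPM) and Ciita (66.8 CPM), WT day 4 library 4 the lowest for Isg15 (16.7 CPM), WT day 4 library 5 the highest for Esam (28.4 CPM), WT day 4 library 5 the lowest for Gkn3 (0.949 CPM), Acaa2 (152 CPM), Fer1l6 (16.2 CPM) and Adh1 (220 CPM), WT day 4 library 6 the highest for Dkk4 (2.15 CPM) and Gm10800 (0.614 CPM), tumour 3 the highest for Gm15292 (3.89 CPM) and tumour 5 the highest for Cpa1 (95.1 CPM) stood apart.

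Effects under the same contrast differed between the arms, by a test of the difference itself, in 5486 genes, of which 622 were called in opposite directions.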

How the results depend on the processing

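The counts of day 4 and tumour calls stayed within 1.5 times of 10748 and 10966 under every alternative to all libraries except the 2 restrictions named here. With 1 library left out, 9828 to 11729 genes were called at day 4, 8874 (without WT SI 3) to 12607 in tumours and 3603 (without WT SI 3) to 7295 (without Apcfl/fl day 4 library 8) in the difference. Then 3471 to 4906 genes moved alike, 349 to 886 further in tumours, 13 to 194 further at day 4, 1699 to 3114 in tumours only, 1030 to 1980 at day 4 only and 391 to 967 opposite, with 5336 to 7579 not resolved, and the extremes of the smaller classes came without WT SI 3 or Apcfl/fl day 4 library 8, of day 4 only without WT SI 2.

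Requiring an absolute log2 fold change of at least 1 gave 1888 genes alike, 239 further in tumours, 17 further at day 4, 654 at day 4 only and 202 opposite. Without the filter on low counts 372 moved further in tumours and 24 further at day 4. DESeq2 gave 127 further at day 4, and limma voom with quality weights called 11522 differences, with 1461 further in tumours, 840 further at day 4, 5183 in tumours only, 1681 opposite and 3160 not resolved. A term for Ddx3y gave 41 further at day 4 and 414 opposite, and a term for Gm13394 gave 15 further at day 4, 1722 in tumours only and 889 at day 4 only. Same-numbered samples did not deviate together (correlation of -0.17 to 0.13, 4 of 9 pairs best with their own number), and with the replicate number as a block there were 3375 differences, 371 further in tumours, 37 further at day 4, 1674 in tumours only, 860 at day 4 only and 383 opposite.

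The following were chosen after seeing the data. Without the libraries with Cpa1 above 1 CPM there were 2947 differences, 2430 alike, 197 further in tumours, 3 further at day 4, 1617 in tumours only, 725 at day 4 only and 306 opposite. Without the 4 libraries that stood apart there were 8677 differences, 1219 further in tumours, 359 further at day 4 and 1425 opposite. With Ddx3y above 10 CPM only, which leaves 1 tumour assumed to vary like the other groups, 5955 genes were called at day 4, 3273 in tumours and 873 in the difference, with 1039 alike, 53 further in tumours, 1 further at day 4, 511 in tumours only, 178 at day 4 only and 113 opposite. With day 4 libraries of Gm13394 above 10 CPM only, 5490 were called at day 4.

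Among the genes named, 10 effects changed sign under an alternative. The difference of Msln was 3.13 with limma voom, and its day 4 effect -0.38 with Ddx3y above 10 CPM only. The day 4 effect of Cela1 was 1.08 without the Cpa1 libraries. With Gm13394 under 10 CPM only, the day 4 effects were 1.21 for Defa17, -0.56 for Ly6d, -0.074 for Anxa1 and -0.84 for Isg15, and with Gm13394 above 10 CPM only -0.96 for Cd177, 1.99 for Pdx1 and -1.83 for Gm7849. The causes were not tested. Of the genes named, 127 of 141 day 4 calls, 130 of 155 tumour calls and 111 of 139 calls of a difference held in all 24 fits that left out 1 library. Many of these genes were picked for large effects in the same libraries, so the counts do not measure how stable calls are in general. Tumour effects rest on 3 WT SI libraries, and at the depth of library 1 of Apcfl/fl day 4 3 reads stand for 5.8 CPM.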
